A study of Homo sapiens with 6 samples.

Results

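The tetraspanin genes were followed in RT4 cells, an established human line from a non-muscle invasive bladder tumour, after knockdown of *LEADR*. Members were the protein-coding rows of the count table whose symbol is TSPAN followed by a number, or *CD9*, *CD37*, *CD53*, *CD63*, *CD81*, *CD82* or *CD151*. This rule uses names only and found 28 of 57905 genes. *LEADR* is a spliced non-coding transcript of *MIR205HG*, the host gene of miR-205. RT4 cells labelled wild type were transfected with 100 pmol of a single *LEADR*-specific siRNA (LEADR-KD, 3 libraries) or a universal negative control siRNA (Scramble, 3 libraries). Poly(A) RNA was sequenced 48 h later. The labels number the libraries of each group from 1 to 3 but do not say that they come from separate cultures. The study's methods speak of biological replicates without saying what was separate, so p-values measure the spread between these libraries, which may be technical in part. A bulk library cannot separate fewer cells of a type from less RNA per cell.

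Tetraspanins are small proteins that cross the membrane several times and expose a large cysteine-rich loop to the outside. They bind each other and partner proteins, mainly integrins, immunoglobulin-family proteins and proteases, in patches of membrane called the tetraspanin web. In epithelia they take part in adhesion, in traffic through endosomes and in the release of extracellular vesicles. Uroplakins UPK1A and UPK1B, of the plaques on urothelial cells, belong to the same superfamily under other names.

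The knockdown was checked on *MIR205HG* as a whole gene, since its count does not separate *LEADR* from the other transcripts. Its raw counts were 113, 211 and 101 in LEADR-KD 1 to 3, against 511, 337 and 346 in Scramble 1 to 3. Its log2 fold change was -1.47 (edgeR quasi-likelihood test, adjusted p = 0.00180). Totals were 15706033 to 18960822 counts per library. Mitochondrially encoded genes took 4.79% to 10.8% of the counts in LEADR-KD and 3.06% to 11.9% in Scramble, with the library numbered 1 highest in each group. Epithelial markers such as *EPCAM* and *KRT18* were high, with a summed 8079 to 8680 CPM (counts scaled to library size) over 12 genes in LEADR-KD and 6690 to 7402 CPM in Scramble, while *KRT5* and *KRT20* were near 0. Summed leukocyte markers (9 genes, 5 of them at 0 in all libraries, *PTPRC* the defining one) reached 4.89 to 8.21 CPM in LEADR-KD and 4.93 to 9.07 CPM in Scramble. Those of endothelium (4 genes, 2 at 0) summed to 2.55 to 4.46 CPM in LEADR-KD and 6.98 to 10.2 CPM in Scramble. Only 1 of these 4 genes passed the filter on low counts, *VWF* (log2 fold change -1.16, edgeR adjusted p = 0.00553), so this sum does not describe a cell type. Those of fibroblasts (6 genes, 3 at 0) summed to 18.4 to 25.7 CPM in LEADR-KD and 26.4 to 32.1 CPM in Scramble. Their part in the changes of the tetraspanins was not tested.

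RT4 cells carried mRNA of most of the family. Of the 28 genes, 21 passed the filter on low counts and 7 did not. Per gene length, as FPKM (fragments per kilobase of transcript, scaled to sequencing depth), 11 of the 21 averaged above 10 FPKM in Scramble cells and 3 averaged below 1 FPKM. The highest levels belonged to *CD63*, a tetraspanin of late endosomes and lysosomes, at 153 FPKM in LEADR-KD and 128 FPKM in Scramble, and to *CD9*, a broadly expressed surface tetraspanin, at 120 FPKM in LEADR-KD and 133 FPKM in Scramble. Both mark extracellular vesicles, and their libraries overlapped in level in Scramble cells. Next came *TSPAN1* (73.9 FPKM in LEADR-KD and 88.9 FPKM in Scramble), *TSPAN13* (83.6 FPKM in LEADR-KD and 87.5 FPKM in Scramble) and *TSPAN6* (49.5 FPKM in LEADR-KD and 77.2 FPKM in Scramble). In Scramble cells *TSPAN1* overlapped with *TSPAN13* and *TSPAN13* with *TSPAN6*, while *CD63* stood apart from *TSPAN1*. Of the 20 pairs of neighbours in the Scramble order, 11 overlapped between libraries and 9 did not. The gaps below *CD63* and between *TSPAN6* and *TSPAN15*, at 30.9 FPKM in Scramble, were among the 9. *TSPAN7* was number 18 of 21 in LEADR-KD at 1.45 FPKM and number 14 in Scramble at 7.23 FPKM.

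**Figure D1:**
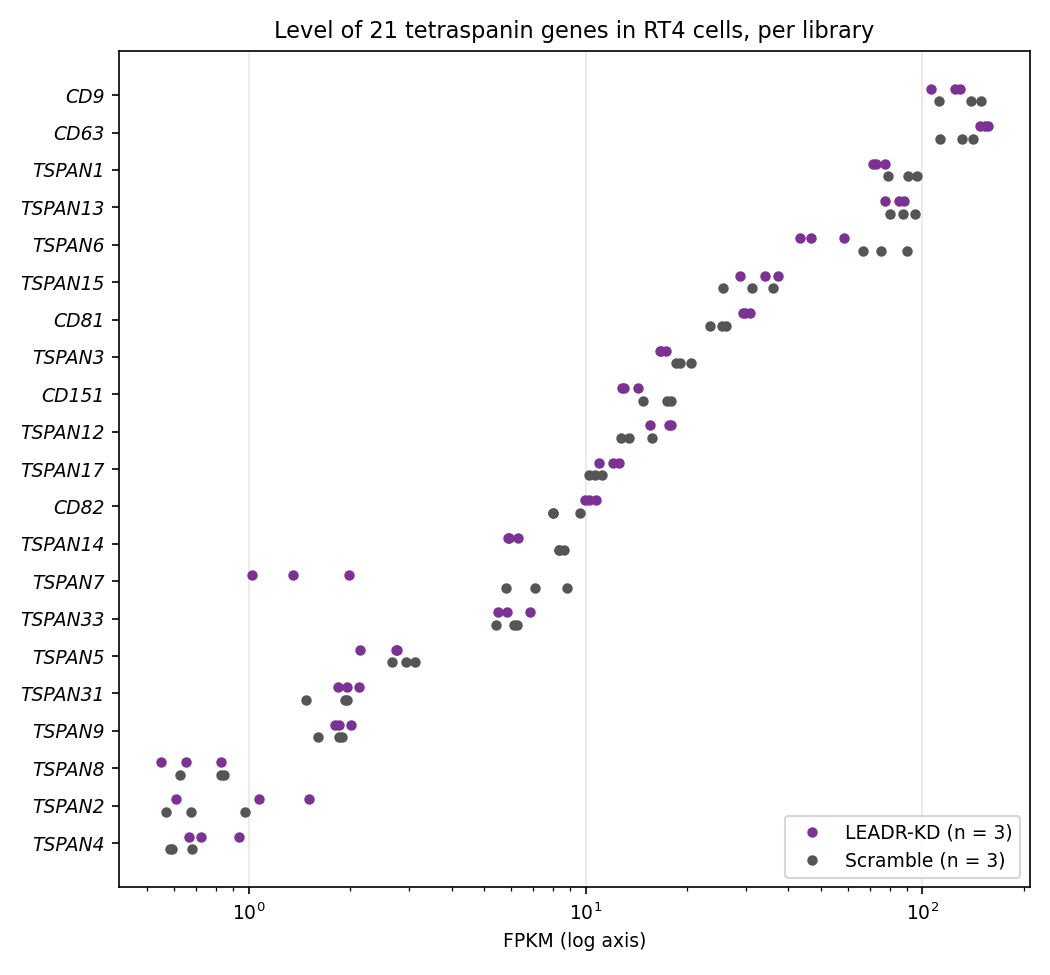
FPKM of 21 tetraspanin genes (log axis) in each of 3 LEADR-KD and 3 Scramble libraries, genes ordered by their Scramble mean. *CD9* and *CD63* stand at the top above 100 FPKM, *TSPAN8*, *TSPAN2* and *TSPAN4* at the bottom under 1 FPKM in Scramble, and the 2 groups part most widely at *TSPAN7*.

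Knockdown went with lower mRNA of 5 tetraspanins and higher mRNA of 1, of the 21 tested. A gene was said to rise or fall when its adjusted p was under 0.05 in the edgeR quasi-likelihood test over all 14178 genes tested. *TSPAN7*, *TSPAN6*, *TSPAN14*, *CD151* and *TSPAN1* fell, which is 23.8% of those tested, beside 12.1% of all genes tested. *CD81* rose, 4.76% of those tested, beside 12.2% of all genes. Past a fold of 2 there was 1 member, *TSPAN7*, on the lower side, where 2.58% of all genes lay, and none on the higher side, where 1.64% lay. By DESeq2 the count past a fold of 2 was also 1. At an unadjusted p under 0.05 there were 6 lower and 4 higher members of the 21, beside 17.9% of all genes on each side. The median log2 fold change of the 21 was 0.02, against -0.01 over all genes tested, so the middle of the family lay near that of all genes. CPM ranges of the groups did not overlap for 9 of the 21 members (42.9%), close to the 39.8% of all genes. These were the 6 genes that passed the test, and *CD63*, *TSPAN3* and *CD82*, which did not.

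**Figure D2:**
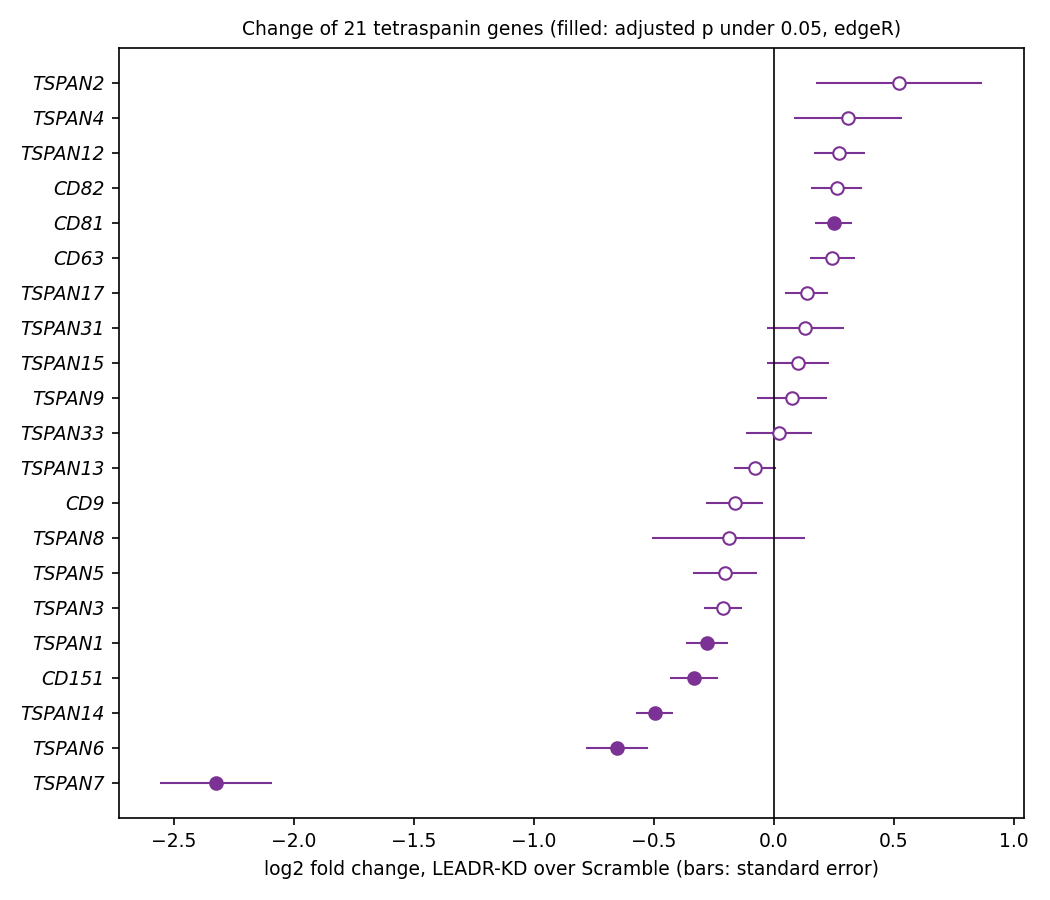
Log2 fold change of 21 tetraspanin genes, LEADR-KD over Scramble, with standard errors from 3 + 3 libraries; filled points have an adjusted p under 0.05. *TSPAN7* lies apart at -2.32, *TSPAN6* and *TSPAN14* follow at -0.65 and -0.50, and the remaining genes lie between -0.33 and 0.52.

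*TSPAN7* encodes a tetraspanin best known from neurons, where its loss causes X-linked intellectual disability in humans. The gene lies on chromosome X (GRCh37, 38420623 to 38548169, plus strand). Its raw counts were 67, 58 and 109 in LEADR-KD 1 to 3, against 309, 433 and 462 in Scramble 1 to 3. As scaled values these were 4.20, 3.19 and 6.17 CPM in LEADR-KD, against 18.2, 22.2 and 27.6 CPM in Scramble. Every LEADR-KD library lay under every Scramble library, with means of 4.52 ± 1.52 and 22.7 ± 4.71 CPM (SD, n = 3 each). The log2 fold change was -2.32 (standard error 0.23, edgeR adjusted p = 3.90e-05), a LEADR-KD level 0.200 of that in Scramble. A readthrough gene model on the same strand shares 676 exon bases with *TSPAN7* and had 0 counts.

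*TSPAN6* also lies on chromosome X (99883667 to 99894988, minus strand). It is known as an inhibitor of signalling from RIG-I-like receptors and from work on extracellular vesicles. It had 174, 139 and 129 CPM in LEADR-KD 1 to 3, against 226, 269 and 199 CPM in Scramble 1 to 3. The groups did not overlap, and their nearest libraries were LEADR-KD 1 and Scramble 3. Means were 147 ± 23.7 CPM in LEADR-KD and 231 ± 34.9 CPM in Scramble, and *TSPAN6* fell by 0.65 on the log2 scale (standard error 0.13, edgeR adjusted p = 0.00363). No other member differed as much in mean CPM.

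*TSPAN14* (chromosome 10, 82213922 to 82292879, plus strand) also fell. It belongs to the TspanC8 group, whose members bind the protease ADAM10, help it leave the endoplasmic reticulum and steer which substrates it cuts. Its levels were 105, 113 and 105 CPM in LEADR-KD 1 to 3, against 150, 156 and 151 CPM in Scramble 1 to 3. Means of 108 ± 4.33 CPM in LEADR-KD and 152 ± 2.95 CPM in Scramble differed by far more than the libraries did within either group. The log2 fold change was -0.50 (standard error 0.08, edgeR adjusted p = 0.000691). *TSPAN7*, *TSPAN6* and *TSPAN14* each passed the test in 16 of 16 alternative settings.

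**Figure D3:**
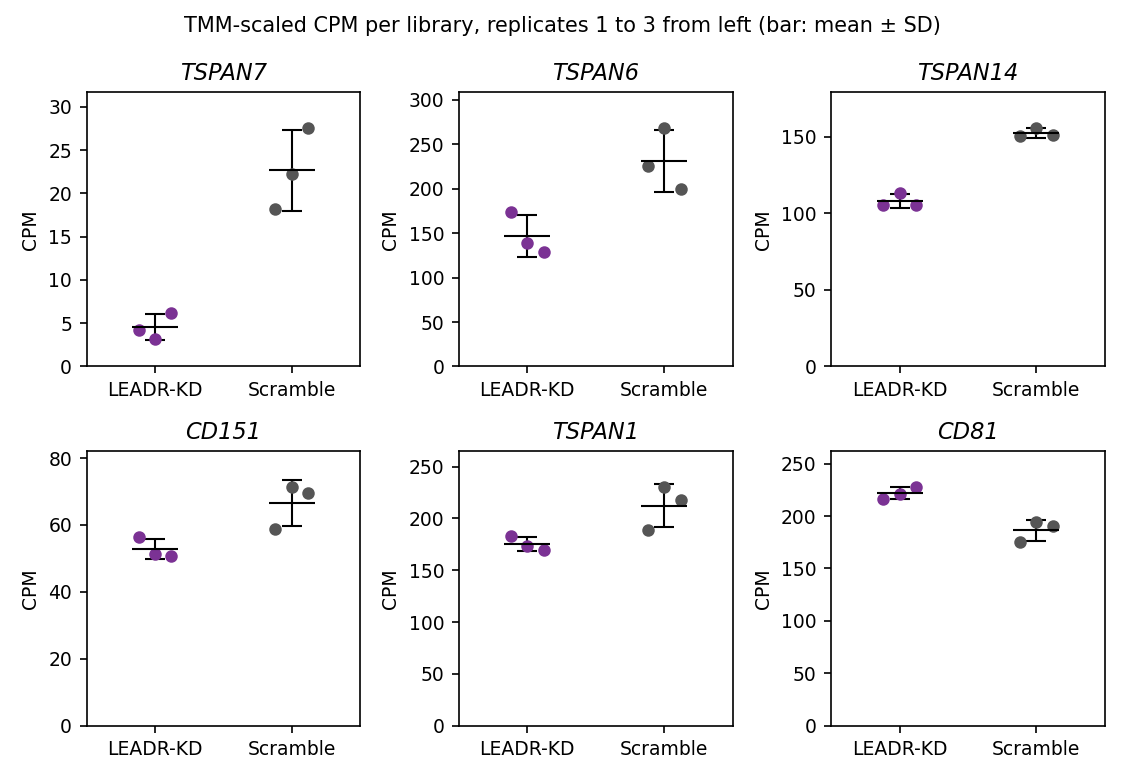
TMM-scaled CPM of the 6 tetraspanin genes with an adjusted p under 0.05, 1 panel per gene, in LEADR-KD (left) and Scramble (right) libraries 1 to 3, with mean ± SD. The groups do not overlap in any panel, and in *TSPAN1* and *CD151* the libraries numbered 1 lie closest together.

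*TSPAN7* and *TSPAN14* hold short matches to the siRNA in their 3′ UTRs, and the sequences are shown here because the knockdown used a single siRNA. A single strand was taken from the labels, and the other was written as its full-length complement. The true ends of that other strand are not known here, and with shifted ends its seed would differ. Both are given 5′ to 3′, with bases 2 to 8, the seed, in capitals. The listed strand reads as the *MIR205HG* RNA does (it occurs in 13 of 17 annotated transcripts), so the complement is the strand that pairs with *LEADR*.
siRNA listed: aACUGGGUgcuuuauauagga
complement of the siRNA listed: uCCUAUAUaaagcacccaguu
The longest annotated 3′ UTR of each gene (GENCODE, GRCh37) was searched on the transcript's strand for the 7-base matches ACCCAGT, to the seed of the listed strand, and ATATAGG, to that of the complement. Sites in tested members follow in the direction of the transcript, 29 bases each, with the match in capitals.
*TSPAN7*, chrX:38547331-38547359, plus strand: ctgacactcccACCCAGTctctgctccac
*TSPAN14*, chr10:82282080-82282108, plus strand: aacatggtgatACCCAGTttctactaaaa
*TSPAN14*, chr10:82292234-82292262, plus strand: ttgttgcattcATATAGGagatgctattg
*TSPAN3*, chr15:77336650-77336678, minus strand: gtgttggcattACCCAGTgcttgttcttc
*TSPAN5*, chr4:99392413-99392441, minus strand: aaacaacattgACCCAGTcaaaagcttct

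The site in *TSPAN7* begins at base 160 of a UTR of 990 bases and lies in both of its annotated coding transcripts. The sites in *TSPAN14* lie in a UTR of 15151 bases: ACCCAGT is in 3 of its 7 coding transcripts with a 3′ UTR and ATATAGG in 1 of 7. For *TSPAN3* and *TSPAN5* the match is in 1 of 6 and in 1 of 2 transcripts. Of the 4 tested tetraspanins with ACCCAGT, 2 fell and the median log2 fold change was -0.35. Of the 17 without it, 3 fell and 1 rose, with a median of 0.10. *TSPAN6* fell with neither match in its 2921-base UTR, and *CD151*, *TSPAN1* and *CD81* hold neither. Among 12103 tested protein-coding genes with a 3′ UTR, 12.6% hold ACCCAGT. Of these 1529 genes 25.4% fell, against 11.1% of the 10574 without it, and their UTRs were longer (median 3312 bases with, 1361.5 bases without). ATATAGG was in 8.51% of the genes, and 14.6% of those fell, against 12.8% of those without. UTRs with ATATAGG were longer too (median 3635 bases with, 1408 bases without). For ATATAGG, the presence or absence of a match rests on the assumed ends of the complement. A match is a description of the sequence, and its part in the fall of any tetraspanin was not tested.

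Among the TspanC8 tetraspanins only *TSPAN14* fell of the 5 that are members, all of them tested. *TSPAN15*, which directs ADAM10 to N-cadherin, had 75.7, 91.0 and 98.9 CPM in LEADR-KD, against 68.5, 83.1 and 96.1 CPM in Scramble (log2 fold change 0.10, edgeR adjusted p = 0.624). *TSPAN17* averaged 62.0 ± 4.13 CPM in LEADR-KD and 56.4 ± 2.43 CPM in Scramble (log2 fold change 0.14, adjusted p = 0.305). *TSPAN5* lay between 15.9 and 20.5 CPM in LEADR-KD and between 20.1 and 23.4 CPM in Scramble (-0.20, adjusted p = 0.310). *TSPAN33*, known from erythroid and B cells, averaged 15.2 ± 1.69 CPM in LEADR-KD and 14.9 ± 1.16 CPM in Scramble (0.02, adjusted p = 0.928). The libraries of the groups overlapped for each of these 4. The sign of *TSPAN15* and of *TSPAN33* turned in some alternative settings. The remaining TspanC8 gene, *TSPAN10*, is annotated in the table as a polymorphic pseudogene and so falls outside the rule. It had raw counts of 9, 10 and 14 in LEADR-KD 1 to 3, against 49, 32 and 25 in Scramble 1 to 3 (log2 fold change -1.64, edgeR adjusted p = 0.0137). It did not pass without LEADR-KD 2 (adjusted p = 0.0606), without Scramble 1 (0.0594) or without both libraries numbered 1 (0.0893).

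The surface tetraspanins of adhesion moved both ways, with 1 higher and 2 lower of 7. *CD151* (chromosome 11, 832843 to 839831, plus strand), the close partner of laminin-binding integrins, had 56.4, 51.4 and 50.7 CPM in LEADR-KD 1 to 3, against 58.7, 71.3 and 69.4 CPM in Scramble 1 to 3. It fell by 0.33 on the log2 scale (standard error 0.10, edgeR adjusted p = 0.0313). *TSPAN1* (chromosome 1, 46640745 to 46651630, plus strand), a tetraspanin of epithelial cells, had 183, 173 and 169 CPM in LEADR-KD, against 189, 230 and 217 CPM in Scramble. It fell by 0.28 (standard error 0.09, edgeR adjusted p = 0.0407). In both genes Scramble 1 was the Scramble library nearest to LEADR-KD, and the ranges were narrowly apart. *CD81* (chromosome 11, 2397407 to 2418649, plus strand), an entry factor of hepatitis C virus, had 216, 221 and 228 CPM in LEADR-KD, against 175, 194 and 190 CPM in Scramble. It rose by 0.25 (standard error 0.08, edgeR adjusted p = 0.0356), and every LEADR-KD library lay above every Scramble library.

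These 3 calls did not hold without some of the single libraries. By the edgeR test *CD151* did not pass without LEADR-KD 2 (adjusted p = 0.109), LEADR-KD 3 (0.0996), Scramble 2 (0.119) or Scramble 3 (0.0950). *TSPAN1* did not pass without the same libraries (0.121, 0.126, 0.159 and 0.108 in that order) or with library totals as the only scaling (0.0584). With limma it did not pass on log2(FPKM + 1) (0.0706) or on log2(FPKM + 0.1) (0.0723). *CD81* passed by edgeR without LEADR-KD 1 (0.0471) but not without LEADR-KD 2 (0.0900), LEADR-KD 3 (0.105), Scramble 1 (0.109), Scramble 2 (0.0625) or Scramble 3 (0.0744). Nor did it pass with library totals (0.209) or without both libraries numbered 1 (0.0879). Directions held throughout. *CD151* overlaps *POLR2L* on the opposite strand over 257 exon bases, with 6279 counts for *CD151* and 4339 for *POLR2L* over the 6 libraries.

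**Figure D4:**
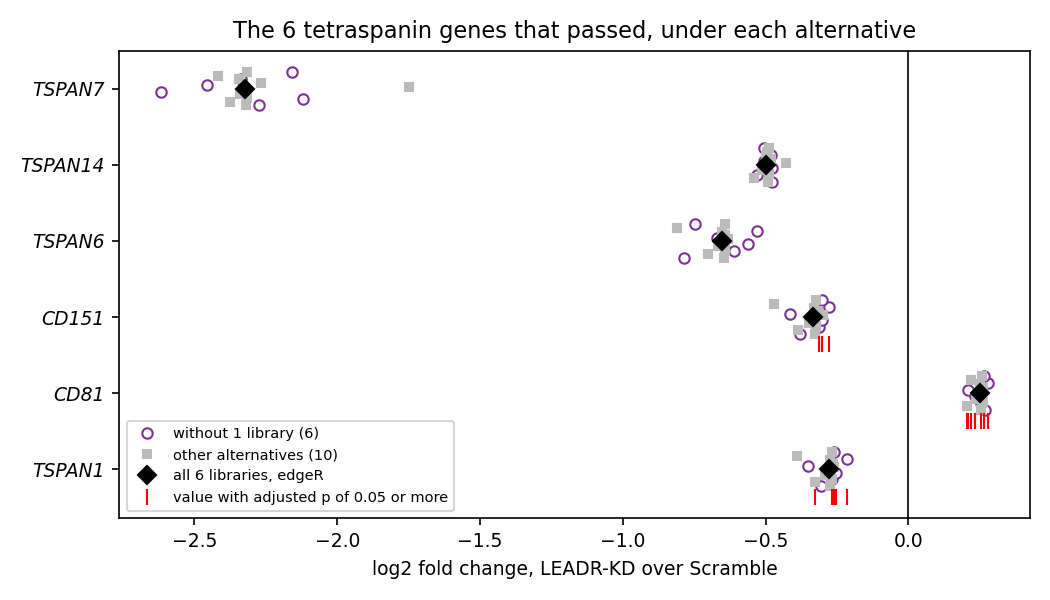
Log2 fold change, LEADR-KD over Scramble, of the 6 tetraspanin genes that passed, from all 6 libraries (diamonds), without 1 library (circles) and under the other alternatives (squares); red ticks mark values whose adjusted p was 0.05 or more. *TSPAN7* (-2.62 to -1.75), *TSPAN6* (-0.81 to -0.53) and *TSPAN14* (-0.54 to -0.43) carry no red tick, while *CD151*, *TSPAN1* and *CD81* carry 4, 7 and 7.

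*CD9* had 340, 406 and 416 CPM in LEADR-KD 1 to 3, against 364, 483 and 454 CPM in Scramble 1 to 3, and the groups overlapped (log2 fold change -0.16, standard error 0.12, edgeR adjusted p = 0.355). *CD82*, known as a suppressor of metastasis, had 41.3, 40.7 and 43.8 CPM in LEADR-KD, against 32.7, 32.7 and 39.4 CPM in Scramble. Its ranges were apart, yet the log2 fold change of 0.26 did not pass (standard error 0.11, edgeR adjusted p = 0.0973). *TSPAN4*, a protein of the migrasomes left behind by moving cells, averaged 4.53 ± 0.813 CPM in LEADR-KD and 3.65 ± 0.306 CPM in Scramble (0.31, adjusted p = 0.359). *TSPAN8*, a tetraspanin of gastrointestinal tumours, was rare at 1.71 ± 0.362 CPM in LEADR-KD and 1.95 ± 0.311 CPM in Scramble (-0.19, adjusted p = 0.718).

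In the group of 6 made up of *CD63* and its relatives, *TSPAN6* and *TSPAN7* fell and 4 did not pass. Where their proteins lie in RT4 cells was not measured. *CD63* itself had 412, 406 and 392 CPM in LEADR-KD 1 to 3, against 347, 374 and 299 CPM in Scramble 1 to 3. All LEADR-KD libraries were higher, but the log2 fold change of 0.24 (standard error 0.09) had an edgeR adjusted p of 0.0816. *TSPAN3* had 97.7, 99.2 and 102 CPM in LEADR-KD, against 110, 113 and 122 CPM in Scramble. It too had separate ranges (log2 fold change -0.21, standard error 0.08, edgeR adjusted p = 0.0735), and it passed with a stricter filter on low counts (0.0445). *TSPAN13* averaged 186 ± 11.7 CPM in LEADR-KD and 197 ± 17.1 CPM in Scramble (-0.08, adjusted p = 0.571). *TSPAN31*, a neighbour of *CDK4* that is amplified with it in sarcomas, averaged 10.7 ± 0.801 CPM in LEADR-KD and 9.74 ± 1.45 CPM in Scramble (0.13, adjusted p = 0.603). Its value is uncertain, because it shares 1369 exon bases with *CDK4* on the other strand, and *CDK4* had 21562 counts against 1074 for *TSPAN31*. Per the labels the library kit keeps the strand, but whether the counting used it is not given there. Overlap with *CD63-AS1* was 120 bases, with 450 counts against 39069 for *CD63*.

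*CD9*, *CD63* and *CD81*, the tetraspanins most used as markers of extracellular vesicles, together took 46.3%, 49.0% and 49.2% of the tetraspanin counts in LEADR-KD 1 to 3, against 42.5%, 43.4% and 42.3% in Scramble 1 to 3. Summed over all members, the family reached 2094, 2107 and 2103 CPM in LEADR-KD, against 2082, 2420 and 2228 CPM in Scramble. The summed level of the 3 genes was 968, 1032 and 1035 CPM in LEADR-KD, against 886, 1051 and 943 CPM in Scramble. Both sums overlapped between the groups, and only the share of the 3 genes did not. That share also depends on the other members, among which are the 5 that fell, so it is not a separate result on the 3 genes. Of the 3 genes, the ranges of *CD63* and *CD81* were apart and those of *CD9* overlapped.

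*TSPAN12*, a co-receptor for the ligand norrin in retinal vessels, was the better expressed of the other tetraspanins. It had 59.5, 60.8 and 52.3 CPM in LEADR-KD, against 43.4, 53.4 and 45.9 CPM in Scramble, where Scramble 2 reached into the LEADR-KD range (log2 fold change 0.27, standard error 0.11, edgeR adjusted p = 0.0840). *TSPAN2*, known from oligodendrocytes, was the most uneven member with 2.07, 3.69 and 5.15 CPM in LEADR-KD, against 3.36, 1.95 and 2.33 CPM in Scramble. Its log2 fold change of 0.52 was the highest of the 21 and had the widest standard error, 0.35 (edgeR adjusted p = 0.310). Without both libraries numbered 1 it was 1.04 (adjusted p = 0.0326). *TSPAN9*, a platelet tetraspanin, averaged 10.8 ± 0.631 CPM in LEADR-KD and 10.3 ± 0.897 CPM in Scramble (0.07, adjusted p = 0.755) and was the tested member of the blood cell tetraspanins.

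The 7 members that were not tested had at most 5 counts over the 6 libraries, whereas the rarest tested member had 193. *TSPAN18*, *TSPAN19* and *CD37*, a tetraspanin of B cells, had 0 counts in every library. A count of 0 allows up to 3 counts, or 0.154 to 0.188 CPM by library, for counting error only. *TSPAN11*, *TSPAN16*, *TSPAN32* and the leukocyte tetraspanin *CD53* had between 1 and 5 counts in all. No difference was detectable at this depth for these genes.

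Of the tetraspanins under other names, *UPK1B*, a uroplakin of the urothelial plaque, rose. It averaged 143 ± 5.92 CPM in LEADR-KD and 84.4 ± 11.3 CPM in Scramble, with raw counts of 2374, 2491 and 2550 in LEADR-KD against 1304, 1897 and 1322 in Scramble (log2 fold change 0.76, edgeR adjusted p = 0.000264). Its relative *UPK1A* averaged 6.82 ± 1.74 CPM in LEADR-KD and 5.96 ± 1.25 CPM in Scramble (0.19, adjusted p = 0.615). *ROM1* and *PRPH2*, tetraspanins of photoreceptors, did not pass the filter.

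Among mRNAs of proteins that tetraspanins hold in the web, some rose and some fell. Of 23 partner genes 22 were tested, 4 rose (18.2%, beside 12.2% of all genes), 5 fell (22.7%, beside 12.1%) and 13 did not pass, with a median log2 fold change of 0.16 (-0.01 over all genes). Those that rose were the complement regulator *CD46* (0.80), the collagen receptor subunit *ITGA2* (0.72), the kinase *PRKCA* (0.55) and the hyaluronan receptor *CD44* (0.45). The largest falls were those of the fibronectin receptor subunit *ITGA5* (-1.06), the tight junction gene *CLDN1* (-0.66) and *IGSF3* (-0.35), of the immunoglobulin family. *ITGA5* was rare, with raw counts of 30, 31 and 32 in LEADR-KD 1 to 3, against 40, 87 and 74 in Scramble 1 to 3. The growth factor receptor *EGFR* and the norrin co-receptor *LRP5* fell by 0.33 each. The laminin-binding integrin genes that accompany *CD151* did not pass: *ITGA3* had 705 ± 42.1 CPM in LEADR-KD and 614 ± 22.9 CPM in Scramble, and *ITGA6* had 217 ± 33.6 CPM in LEADR-KD and 181 ± 15.0 CPM in Scramble. The number of partners that fell ranged from 1 to 5 over the alternatives, and those that rose from 4 to 8.

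*ADAM10*, the protease that TspanC8 proteins escort, averaged 404 ± 12.5 CPM in LEADR-KD and 388 ± 34.9 CPM in Scramble (log2 fold change 0.06, edgeR adjusted p = 0.680). In the list of 10 genes for ADAM10, its relative ADAM17 and γ-secretase, the complex that cuts Notch within the membrane, 4 rose and 1 fell, with a median of 0.36. The shares of all genes were 12.2% and 12.1%. The γ-secretase subunit *APH1B* rose most, to 26.6 ± 2.99 CPM in LEADR-KD, against 12.7 ± 1.03 CPM in Scramble (1.06, adjusted p = 0.000171). *ADAM17* (0.64) and *PSEN2* (0.46) followed, while nicastrin, *NCSTN*, fell by 0.37. Over the alternatives 2 to 6 genes of this list rose and 0 to 2 fell.

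Of 21 genes of the machinery that forms and releases extracellular vesicles, all tested, 5 rose (23.8%, beside 12.2% of all genes), 3 fell (14.3%, close to the 12.1% of all genes) and 13 did not pass, with a median log2 fold change of 0.11. The small GTPases *RAB27A* (0.79) and *RAB27B* (0.55), which dock multivesicular bodies at the plasma membrane, rose with the ESCRT-III gene *CHMP2B* (0.84) and the lysosomal membrane gene *LAMP2* (0.51). *SDC1*, the syndecan whose cytoplasmic tail binds syntenin, fell to 338 ± 28.1 CPM in LEADR-KD, against 794 ± 98.0 CPM in Scramble (-1.23, edgeR adjusted p = 2.03e-05). *CHMP2A* (-0.61) and *VPS4B* (-0.59), which act at the last step of ESCRT scission, fell too.

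**Figure D5:**
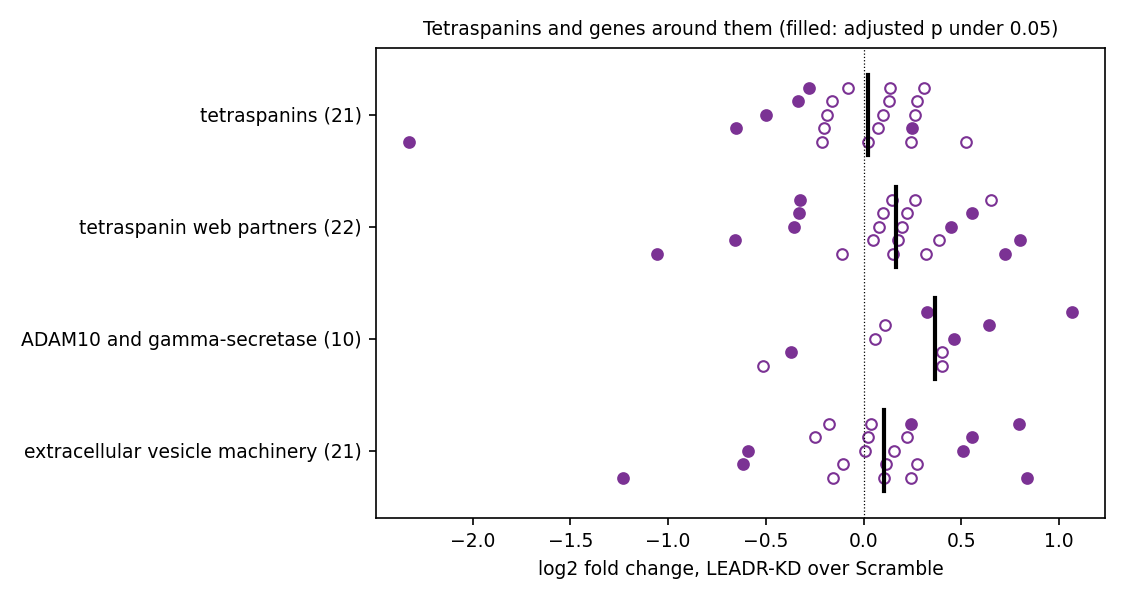
Log2 fold change, LEADR-KD over Scramble, of single genes among the tetraspanins, their web partners, the ADAM10 and γ-secretase genes and the vesicle machinery; filled points have an adjusted p under 0.05. List medians are 0.02, 0.16, 0.36 and 0.11, and every list holds genes that rose and genes that fell.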

How the data were processed

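Per the labels, total RNA of RT4 cells was made into directional poly(A) libraries. According to the submitters' processing notes, the authors used HISAT2 2.0.5, featureCounts 1.5.0-p3 and DESeq2 1.20.0 with build hg19. The study's methods name Salmon for the quantification instead. The authors deposited raw counts and FPKM per gene and library. Columns of their own comparison (fold changes and p-values) were not used.

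Genes were tested on the deposited counts in R 4.3.3 with edgeR 4.0.16 (TMM scaling, filterByExpr with a minimum count of 10, quasi-likelihood test), with 3 LEADR-KD against 3 Scramble libraries and Benjamini-Hochberg adjustment over 14178 genes. Standard errors are the log2 fold change over the root of F. CPM are TMM-scaled. DESeq2 1.42.0 and limma 3.58.1 on log2(FPKM + 1) and log2(FPKM + 0.1) were alternatives, with other scalings, filters, a replicate block and left-out libraries. The biological coefficient of variation was 12.6%. On simulated data of 14001 genes, 2%, 36%, 88% and 100% of genes changed by a fold of 1.2, 1.5, 2 and 4 were recovered. Each share rests on 50 genes, the genes outside these were unchanged, and all genes had the same coefficient of variation. In the real data 1736 genes rose and 1719 fell, so these shares do not measure the sensitivity of the test there.

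Members and lists were chosen with earlier results of these data known. Every member is named with its values, of the lists up to 4 genes per direction by fold change, besides *MIR205HG*, *UPK1A*, *UPK1B*, *ROM1* and *PRPH2*. *TSPAN10*, *ADAM10*, *ITGA3*, *ITGA6* and the fifth partner that fell were added after their values were seen. *PECAM1* was not used. UTRs came from GENCODE v44 on GRCh37. The values of 1 gene of the lists are not reported here.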

Additional observations from a re-analysis of the deposited data

How the results depend on the processing

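*TSPAN7*, *TSPAN6* and *TSPAN14* kept their direction and an adjusted p under 0.05 in all 16 alternatives. With library totals as the only scaling, 0 tetraspanins rose and 4 fell, and 1085 of all genes rose against 1736 with TMM. With the replicate number as a block, 4 tetraspanins rose, *CD81*, *CD63* (adjusted p = 0.0153), *TSPAN12* (0.0171) and *CD82* (0.0282), and 6 fell, *TSPAN3* (0.0261) being added, while 2489 of all genes rose and 2365 fell. Whether the numbers pair the libraries is not known. Deviations from the group means of libraries with the same number correlated at 0.23, 0.00058 and 0.27. Libraries with different numbers correlated at -0.30 to 0.075, and LEADR-KD 2 correlated most with Scramble 3 (0.075). Without both libraries numbered 1, 2 tetraspanins lay beyond a fold of 2, *TSPAN2* (1.04) being added. Leaving out 1 library at a time, 0 to 1 tetraspanins rose and 3 to 5 fell, and of all genes 1142 to 1472 fell. The sign of *TSPAN33* turned with library totals (-0.025), without both libraries numbered 1 (-0.034) and within its range without single libraries (-0.066 to 0.090), and that of *TSPAN15* within its own (-0.015 to 0.224). *TSPAN12* passed without Scramble 2 (adjusted p = 0.0491) and *CD82* without Scramble 3 (0.0487). The cause of these shifts was not tested. No scaling moved the median of all genes by more than 0.06. In simulated data 2% of genes changed by a fold of 1.2 and 36% of those changed by 1.5 were recovered. Fewer genes were changed there than passed here, so these shares do not measure the sensitivity of this test.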
